A study of Mus musculus with 2 samples.

Results

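The Polycomb core genes were 10 genes taken by name from the count tables, out of 31053 genes listed, and all 10 were found in both libraries. They comprised *Ezh1*, *Ezh2*, *Eed* and *Suz12* of Polycomb repressive complex 2 (PRC2), and *Ring1*, *Rnf2*, *Bmi1*, *Pcgf6*, *Cbx7* and *Cbx8* of Polycomb repressive complex 1 (PRC1). They were measured by droplet scRNA-Seq in fibro/adipogenic progenitors (FAPs), the interstitial mesenchymal cells of skeletal muscle, sorted as live Lin-Vcam1-Sca1+ cells from limb muscle of 3-week-old C57BL/6 mice. The study asked which FAP subpopulation, marked by *Dpp4* or by *Cxcl14*, bears on the neuromuscular system of mice whose mesenchymal progenitors lack Bap1. There was 1 library of the genotype Bap1f/f, a littermate control called Bap1WT here, and 1 of the genotype Prx1-Cre;Bap1f/f, labelled as the conditional knockout and called Bap1ΔMPC. Both carried loxP-flanked *Bap1* alleles, and only the second carried Cre, driven by *Prx1* regulatory sequence that is active in limb mesenchymal progenitors, so that deletion is not limited to FAPs. The number of animals behind each library is not given in the sources used here. A difference between single libraries has no replicate check and no p-value, and genotype and library cannot be told apart.

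Polycomb proteins keep developmental genes silent. PRC2 methylates histone H3 at lysine K27 through its catalytic subunit, either Ezh2 or its paralog Ezh1, and needs Eed, which reads the mark, and Suz12, the scaffold. PRC1 ubiquitinates histone H2A through the ligases Ring1 and Rnf2 (Ring1b), joined to a Pcgf protein such as Bmi1 in canonical complexes or Pcgf6 in a variant complex, and a Cbx protein such as Cbx7 or Cbx8 brings canonical complexes to methylated H3. Bap1 is the catalytic subunit of the deubiquitinase that removes ubiquitin from H2A, which makes it the enzymatic counterpart of PRC1. In many tissues Ezh2 is the paralog of dividing cells and Ezh1 that of resting cells.

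The promoters of the paralog pair *Ezh1* and *Ezh2* and of *Suz12* are printed because *Ezh2* and *Suz12* differed most plainly between cycling and other cells, with *Ezh1* as the other paralog. The sequences are those of RefSeq on GRCm38.p6, read 5′ to 3′ on the gene's strand from 250 bases before the annotated start to 30 bases after it. *Ezh2* lies on the minus strand (chr6:47595001-47595280), *Suz12* on the plus strand (chr11:79992856-79993135) and *Ezh1* on the minus strand (chr11:101226434-101226713). Capitals mark words found on either strand: the E2F words TTTGGCGC and TTTCCCGC, the CHR word TTTGAA (written TTCAAA where it is on the other strand) and the CCAAT box (ATTGG on the other strand).
Ezh2: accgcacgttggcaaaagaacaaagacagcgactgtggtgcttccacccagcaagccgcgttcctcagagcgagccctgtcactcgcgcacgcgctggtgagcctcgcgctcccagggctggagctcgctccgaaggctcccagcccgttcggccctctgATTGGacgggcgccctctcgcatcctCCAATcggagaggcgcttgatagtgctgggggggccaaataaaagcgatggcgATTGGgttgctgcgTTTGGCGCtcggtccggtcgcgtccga
Suz12: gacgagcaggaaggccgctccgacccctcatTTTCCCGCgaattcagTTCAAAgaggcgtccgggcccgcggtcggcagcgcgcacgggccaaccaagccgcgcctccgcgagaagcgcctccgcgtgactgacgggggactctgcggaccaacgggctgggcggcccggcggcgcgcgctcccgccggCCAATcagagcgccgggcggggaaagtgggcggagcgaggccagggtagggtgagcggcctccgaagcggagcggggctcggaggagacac
Ezh1: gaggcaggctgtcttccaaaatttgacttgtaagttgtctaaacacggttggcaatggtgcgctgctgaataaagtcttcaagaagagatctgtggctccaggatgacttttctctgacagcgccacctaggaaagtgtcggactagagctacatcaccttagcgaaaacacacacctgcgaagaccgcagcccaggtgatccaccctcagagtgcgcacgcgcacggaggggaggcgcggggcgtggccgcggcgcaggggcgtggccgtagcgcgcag
E2F and CHR words were searched because they are known from promoters of cell-cycle genes, a choice made with the values below already known. Windows of 300 bases were searched in 32851 RefSeq promoters, and any of 4 E2F words (TTTGGCGC, TTTCCCGC, TTTCGCGC and TTTGCCGC) stood in 2.26% of them. Among the 10 members, *Ezh2* held TTTGGCGC at position 4 after the start and *Suz12* held TTTCCCGC at position -219, and the other 8 held none. The shorter words were common, with CCAAT in 37.4% and TTTGAA in 17.9% of all promoters. *Ezh2* had 3 CCAAT words, *Cbx8* 2, *Eed*, *Suz12* and *Cbx7* 1 each, and *Ezh1* and the remaining members none. TTTGAA stood in *Eed* (2 words), *Suz12* and *Cbx7* (1 each), but not in *Ezh2* or the remaining members. A matching word is a description of the sequence and does not show that a factor binds there.

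Depth was close between the libraries. That labelled Bap1WT had 51015705 UMIs (unique molecular identifiers, counted RNA molecules) in 4103 cells and that labelled Bap1ΔMPC had 49540066 in 4378 cells, and the median cell held 12232 and 11017.5 UMIs, respectively. At least 1 of the FAP markers *Pdgfra*, *Ly6a*, *Cd34*, *Dcn* and *Lum* was detected in 100% of cells of both libraries, and *Ptprc* and *Cd3e* of 5 immune markers and *Pax7*, *Myf5* and *Myod1* of 5 muscle stem cell markers were at 0 in both. The other 3 immune markers summed to 6.55 and 14.7 CPM, each past 1.5-fold higher in the library labelled Bap1ΔMPC, and the other 2 muscle stem cell markers to 4.37 and 4.32 CPM. The summed level of 5 Schwann cell markers was 21.2 CPM (UMIs per 1000000 UMIs) in the library labelled Bap1WT and 67.3 CPM in that labelled Bap1ΔMPC. Of the 4 with at least 20 UMIs in the libraries together, 2 were past 1.5-fold upward and 0 downward, against 12.8% and 10.8% of all genes. In the library labelled Bap1ΔMPC 1 of the 5 had a UMI in 40.8% of cells, where any of them had one in 43.2%. *Sox10*, another of the 5, was at 0 there. The summed level of 5 adipocyte markers was 0.196 and 6.12 CPM. *Bap1* itself, on chromosome 14, was not lower in the library labelled Bap1ΔMPC: it had 897 UMIs (17.6 CPM) in the library labelled Bap1WT and 1072 (21.6 CPM) in the other, a ratio of 1.23 (1.13 to 1.35). Counts at the 3′ end do not show a deletion of exons, so these counts do not check the labels. Intervals throughout are exact at 95% (Poisson for levels, binomial for shares and ratios) and cover counting error only.

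All 10 members were expressed at low levels. Together they had 8643 UMIs (169 CPM) in the library labelled Bap1WT and 8771 (177 CPM) in that labelled Bap1ΔMPC, and the median cell held a UMI of 2 members. No UMI of any member was found in 616 and 819 cells (18.7% of the latter), respectively. These counts are 3′ tags, not scaled by transcript length, and therefore serve to compare a gene between groups of cells rather than genes with each other.

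The share of cells with a UMI followed the depth of the cell. For *Rnf2*, the member with the most UMIs, it was 34.6% in the library labelled Bap1WT and 29.9% in that labelled Bap1ΔMPC, but 16.0% and 15.5% after each cell was thinned to 5000 UMIs. For *Ezh2* it was 14.4% and 17.9%, and 6.48% and 8.37% after thinning, so that the order of the libraries was the same at equal depth. Among markers of immune cells, which the sort removes, the most frequent gene had a UMI in 4.19% and 6.05% of cells. The most frequent erythroid marker had one in 6.17% and 8.34%, and the most frequent myofiber marker in 13.5% and 10.1%. The shares of *Pcgf6* (4.78% and 4.55%) and *Cbx7* (5.44% and 3.33%) stood near or under the immune level of stray RNA. So did that of *Cbx8* in the library labelled Bap1ΔMPC (5.30%). In that labelled Bap1WT *Cbx8* (8.12%) stood under the myofiber level, and *Ezh2* (14.4%) was close to it. None of these shares is read as a share of expressing cells. 

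**Figure D1:**
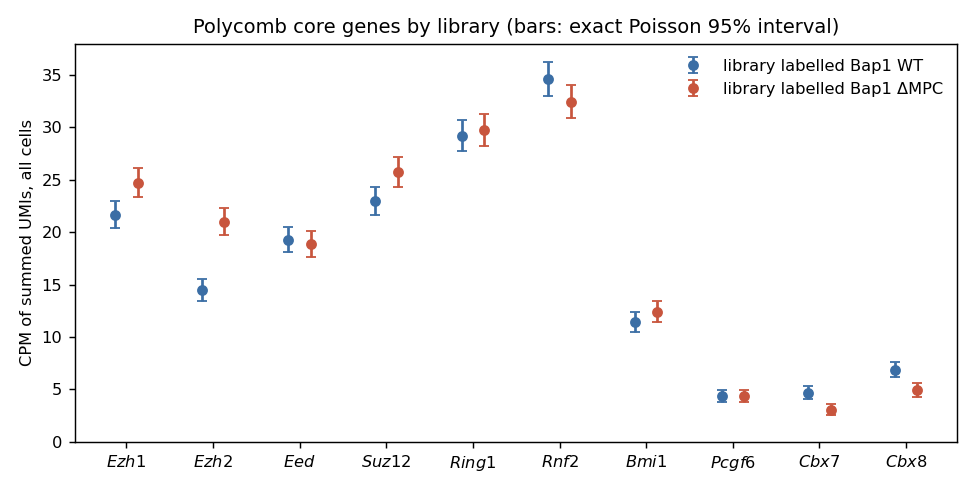
CPM of summed UMIs over all cells for the 10 members (points, with exact Poisson 95% intervals as bars) in the library labelled Bap1WT (4103 cells) and that labelled Bap1ΔMPC (4378 cells). *Ezh2* stands apart upward in the library labelled Bap1ΔMPC (21.0 against 14.4 CPM), and *Cbx7* (3.03 against 4.67) and *Cbx8* (4.91 against 6.86) stand apart downward.

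Between the libraries, the catalytic PRC2 subunit *Ezh2* was higher and the canonical PRC1 readers *Cbx7* and *Cbx8* were lower in the library labelled Bap1ΔMPC, while the scaffold subunits and the ligases were nearly level. *Ezh2* had 737 UMIs (14.4 CPM) in the library labelled Bap1WT and 1038 (21.0 CPM) in that labelled Bap1ΔMPC, a ratio of 1.45 (1.32 to 1.60). Its paralog *Ezh1* had 1106 UMIs (21.7 CPM) and 1224 (24.7 CPM), a ratio of 1.14 (1.05 to 1.24). *Cbx7* had 238 UMIs (4.67 CPM) and 150 (3.03 CPM), a ratio of 0.65 (0.53 to 0.80). *Cbx8* had 350 UMIs (6.86 CPM) and 243 (4.91 CPM), a ratio of 0.71 (0.60 to 0.84). The counting intervals of these 4 ratios lay clear of 1, and so did that of *Suz12*, at 23.0 and 25.7 CPM (1.12, 1.03 to 1.21). The share of all genes with an interval clear of 1 was not computed. Both past 1.5-fold and with such an interval were 1 of the 10 members and 20.5% of 14729 genes.

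The remaining 5 members had ratios between 0.94 and 1.09 with intervals that held 1. *Eed* was at 19.3 CPM in the library labelled Bap1WT and 18.8 CPM in that labelled Bap1ΔMPC. The ligase *Rnf2* was at 34.6 and 32.5 CPM (0.94, 0.88 to 1.004) and its paralog *Ring1* at 29.2 and 29.7 CPM (1.02, 0.95 to 1.10). These were the members with the most UMIs and the narrowest intervals. *Bmi1* was at 11.4 and 12.4 CPM (1.09, 0.97 to 1.22) and *Pcgf6* at 4.35 and 4.36 CPM (0.83 to 1.21).

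A gene was counted as past the fold when its CPM ratio was over 1.5 in either direction and it had at least 20 UMIs in the cells compared. Of the 10 members, 0 were past it upward and 1 (*Cbx7*) downward, where 12.8% of 14729 genes were past it upward and 10.8% downward. The members' median log2 ratio was 0.01, against 0.10 over all genes, and their median absolute log2 ratio was 0.14, against 0.26. At 1.45, *Ezh2* stood just under the fold. Scaling by TMM (trimmed mean of M-values) lowered all ratios by 0.10 on the log2 scale, and the intervals of *Ezh2*, *Cbx7* and *Cbx8* were still clear of 1 on the same side. Those of *Ezh1* (0.98 to 1.16) and *Suz12* (0.96 to 1.13) then held 1, and that of *Rnf2* (0.82 to 0.94) lay under it.

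The same comparison within subpopulations used a cut on marker counts. Dpp4-type cells were those with at least 25 UMIs of *Pi16*, *Sema3c*, *Anxa3* and *Efemp1* together per 10000 UMIs of the cell, and made up 1050 cells (25.6%) of the library labelled Bap1WT and 1251 (28.6%) of that labelled Bap1ΔMPC. Over all cells of these libraries, *Pi16* was at 1243 and 863 CPM and *Anxa3* at 358 and 284 CPM. *Sema3c* was at 459 and 560 CPM and *Efemp1* at 209 and 306 CPM. The cut therefore need not take the same cells from each library. *Ezh2* was higher in the library labelled Bap1ΔMPC in both groups, by 1.39 times (1.16 to 1.65) in Dpp4-type cells and 1.48 times (1.32 to 1.66) in other cells. *Cbx8* was lower in both, at 0.60 (0.44 to 0.81) and 0.77 (0.63 to 0.95). *Cbx7* was at 0.83 (0.58 to 1.19) in Dpp4-type cells, where the interval held 1, and at 0.57 (0.44 to 0.74) in other cells.

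*Pcgf6*, of a variant PRC1, had ratios on opposite sides of 1. In Dpp4-type cells it had 56 UMIs (3.97 CPM) in the library labelled Bap1WT and 37 (2.51 CPM) in that labelled Bap1ΔMPC, a ratio of 0.63 (0.41 to 0.97), and in other cells 166 (4.499 CPM) and 179 (5.15 CPM), a ratio of 1.14 (0.92 to 1.42). The difference between the ratios passed a screen that allows for counting error only, and was not tested with replicates. All 10 members were screened for this comparison, and also for the cycling and the Dpp4-type ratios of the libraries, and only *Pcgf6* passed, here. The share of all genes that would pass was not computed. In Dpp4-type cells 0 members were past 1.5-fold upward and 2 downward (*Pcgf6* and *Cbx8*), against 9.76% and 10.2% of 12517 genes. In other cells 0 were past it upward and 1 downward (*Cbx7*), against 13.8% and 10.2% of 14271 genes.

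**Figure D2:**
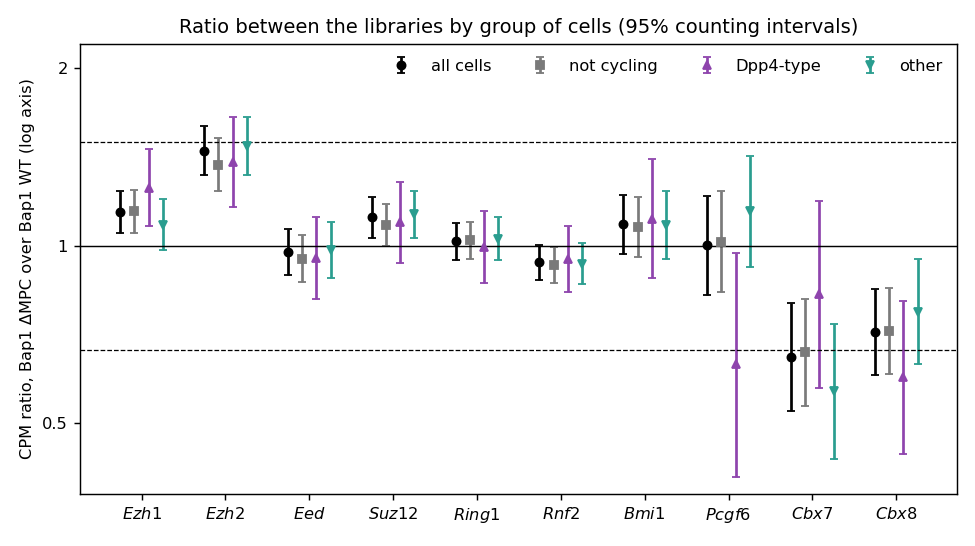
CPM ratio of the library labelled Bap1ΔMPC over that labelled Bap1WT (log axis) for each member in all cells, cells that were not cycling, Dpp4-type cells and other cells, with 95% counting intervals as bars and dashed lines at 1.5-fold in either direction. The 4 points of *Ezh2* lie between 1.37 and 1.48, those of *Cbx8* between 0.60 and 0.77, and those of *Pcgf6* fall on both sides of 1.

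Cycling cells, those with at least 2 UMIs of *Mki67* and *Top2a* together, were 58 (1.41%) in the library labelled Bap1WT and 112 (2.56%) in that labelled Bap1ΔMPC. In both libraries *Ezh2* and *Suz12* were higher in cycling cells. *Ezh1* was lower at this cut, but in the library labelled Bap1WT not at a cut of 1 UMI, where it was at 20.9 CPM in cycling and 21.7 CPM in other cells (0.96, 0.66 to 1.36). In the library labelled Bap1WT *Ezh2* was at 75.7 CPM in cycling cells (64 UMIs) and 13.4 CPM in the others (673 UMIs), a ratio of 5.64 (4.30 to 7.30). The library labelled Bap1ΔMPC had 97.6 CPM (154 UMIs) in cycling cells and 18.4 CPM (884 UMIs) in the others, a ratio of 5.29 (4.43 to 6.29). A UMI of *Ezh2* was found in 22.8% and 33.9% of cycling cells, but in 6.24% and 7.69% of the others, after thinning to 5000 UMIs (48.3% and 58.9%, against 13.9% and 16.9%, before it).

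*Suz12* was at 59.1 and 22.4 CPM in cycling and other cells of the library labelled Bap1WT, a ratio of 2.64 (1.95 to 3.51). The values of the library labelled Bap1ΔMPC were 68.4 and 24.3 CPM, a ratio of 2.82 (2.29 to 3.43). *Ezh1* went the other way, from 21.9 CPM in other cells to 9.46 CPM in cycling cells of the library labelled Bap1WT (0.43, 0.19 to 0.85, on 8 UMIs). In the library labelled Bap1ΔMPC it went from 25.04 to 14.6 CPM (0.58, 0.37 to 0.88, on 23 UMIs). At a cut of 1 UMI its ratio in the library labelled Bap1ΔMPC was 0.75 (0.56 to 0.998), so that *Ezh1* was past 1.5-fold in neither library, while *Ezh2* was still at 3.65 (2.85 to 4.62) and 4.03 (3.44 to 4.72) and *Suz12* at 2.198 (1.73 to 2.76) and 2.04 (1.69 to 2.44).

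*Eed* was at 20.1 CPM in cycling and 19.3 CPM in other cells of the library labelled Bap1WT (1.04, 0.61 to 1.68, on 17 UMIs). In that labelled Bap1ΔMPC it was at 34.2 and 18.3 CPM (1.87, 1.39 to 2.46), and the intervals of the libraries overlapped. Of the PRC1 members, the ligases lay within 1.5-fold, with *Ring1* at 0.69 (0.40 to 1.10) and 0.74 (0.51 to 1.03) and *Rnf2* at 0.89 (0.58 to 1.30) and 1.24 (0.95 to 1.59). *Bmi1* (1.15 and 1.40) and *Cbx8* (1.03 and 0.90) also had intervals that held 1 in both libraries. *Pcgf6* was at 2.80 (1.32 to 5.25) in the library labelled Bap1WT and 1.47 (0.70 to 2.77) in the other, on 10 UMIs in the cycling cells of each. *Cbx7* had 2 and 1 UMIs in cycling cells, too few to give a level.

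In the library labelled Bap1WT 3 members were past 1.5-fold upward in cycling cells (*Ezh2*, *Suz12* and *Pcgf6*) and 2 downward (*Ezh1* and *Cbx7*), against 22.0% and 12.2% of 13582 genes. In that labelled Bap1ΔMPC 3 were past it upward (*Ezh2*, *Suz12* and *Eed*) and 2 downward (*Ezh1* and *Cbx7*), against 19.0% and 13.3% of 13680 genes. *Cbx7* had the minimum of UMIs only through the cells that were not cycling and its intervals held 1 in both libraries, so it is not read as lower. Markers of other cell types also differed with cycling. In the library labelled Bap1ΔMPC the 5 adipocyte markers summed to 46.9 CPM in cycling and 4.77 CPM in other cells and the 5 myofiber markers to 74.1 and 34.5 CPM, whereas in that labelled Bap1WT the adipocyte markers were at 0 in cycling cells and the myofiber markers at 44.9 and 60.8 CPM. With the 11 cycling and 91 other cells that held an adipocyte marker UMI left out of the library labelled Bap1ΔMPC, a step added after the values were seen, *Ezh2* was at 5.57 (4.64 to 6.66), *Suz12* at 2.79 (2.24 to 3.44) and *Ezh1* at 0.62 (0.39 to 0.95). With cells holding a myofiber marker UMI left out of it, they were at 4.73 (3.82 to 5.80), 2.89 (2.28 to 3.62) and 0.61 (0.36 to 0.96).

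The direction held within subpopulations for *Ezh2*, which was 5.25 and 5.81 times higher in cycling cells of the Dpp4-type and other cells of the library labelled Bap1WT, and 7.46 and 4.57 times in those of the library labelled Bap1ΔMPC. For *Suz12* these ratios were 3.52, 2.29, 2.96 and 2.75.

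**Figure D3:**
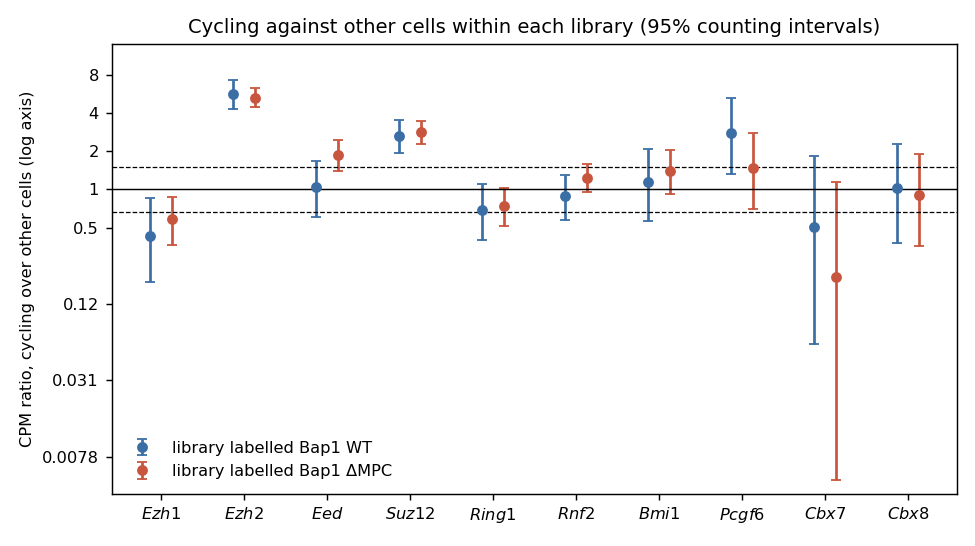
CPM ratio of cycling over other cells (log axis) for each member within the library labelled Bap1WT and that labelled Bap1ΔMPC, with 95% counting intervals as bars and dashed lines at 1.5-fold. *Ezh2* (5.64 and 5.29) and *Suz12* (2.64 and 2.82) lie above the upper line and *Ezh1* (0.43 and 0.58) below the lower line in both libraries, and the wide bars of *Cbx7* rest on 2 and 1 UMIs.

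The share of *Ezh2* among *Ezh1* and *Ezh2* UMIs was compared between groups of cells, and its size, set by 3′ tags of different genes, is not read as a ratio of the enzymes. In cells that were not cycling it was 38% (35.7 to 40.3) in the library labelled Bap1WT and 42.4% (40.3 to 44.6) in that labelled Bap1ΔMPC. In cycling cells it was 88.9% (79.3 to 95.1) and 87.0% (81.1 to 91.6). The share was thus higher in cycling cells in both libraries, also at a cut of 1 UMI (69.9% and 79.4%). By contrast *Rnf2* made up 54.2% and 51.8% of the ligase UMIs in cells that were not cycling and 60.5% (44.4 to 75.0) and 64.3% (54.0 to 73.7) in cycling cells.

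Cells were then grouped by their number of *Mki67* and *Top2a* UMIs. In the library labelled Bap1WT *Ezh2* was at 13.3 CPM (12.3 to 14.4) in cells with 0 such UMIs, 19.3 CPM (10.8 to 31.8) with 1 and 20.5 CPM (8.24 to 42.2) with 2 to 4, with overlapping intervals, and at 113 CPM (85.7 to 147) with 5 or more. In that labelled Bap1ΔMPC it was at 18.0 (16.8 to 19.2), 37.4 (26.9 to 50.5), 59.8 (41.6 to 83.1) and 120 CPM (99.3 to 143). The ratio between the libraries was 1.94 (1.05 to 3.77) at 1 UMI and 2.92 (1.28 to 7.78) at 2 to 4, but 1.06 (0.77 to 1.48) at 5 or more, on 7 to 119 *Ezh2* UMIs per group. *Suz12* was at 81.4 and 87.6 CPM in cells with 5 or more and at 22.1 and 24.3 CPM in cells with 0.

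**Figure D4:**
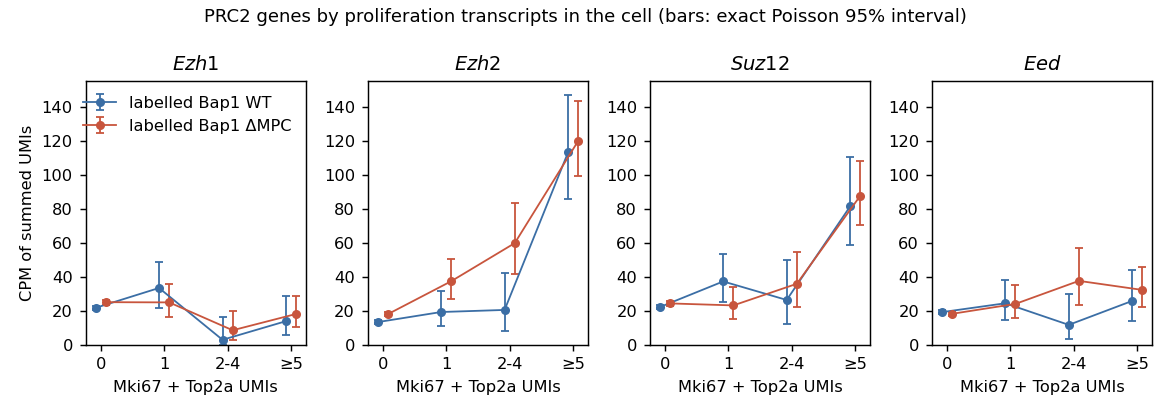
CPM of *Ezh1*, *Ezh2*, *Suz12* and *Eed* in cells grouped by their summed *Mki67* and *Top2a* UMIs (0, 1, 2 to 4, 5 or more), in both libraries, with exact Poisson 95% intervals as bars. *Ezh2* reaches 113 and 120 CPM in the last group and *Suz12* 81.4 and 87.6 CPM, and *Ezh1* does not exceed 33.4 CPM in any group.

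Proliferation genes were themselves higher in the library labelled Bap1ΔMPC. The summed level of 30 S-phase genes was 279 CPM in the library labelled Bap1WT and 393 CPM in that labelled Bap1ΔMPC, and that of 30 mitosis genes 146 and 227 CPM, with 18 and 15 genes past 1.5-fold upward and 0 downward, against 12.8% and 10.8% of all genes. The *Ezh2* ratio was therefore taken again in subsets of cells, a step chosen after the values were seen. Among cells that were not cycling it was 1.37 (1.24 to 1.52). In these cells the S-phase genes still summed to 259 and 326 CPM and the mitosis genes to 38.2 and 47.9 CPM. This subset was thus not level in proliferation genes, and their level in the next subset was not compared. Among those that also had under 5 S-phase UMIs per 10000, *Ezh2* was at 12.7 and 16.8 CPM (587 and 700 UMIs), a ratio of 1.33 (1.19 to 1.49). Among cells that were not cycling but had 10 or more S-phase UMIs per 10000, which numbered 42 and 107, it was at 59.6 and 59.4 CPM, level between the libraries. *Cbx7* and *Cbx8* had nearly the same ratios in these S-phase-low cells (0.68 and 0.72) as over all cells.

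Dpp4-type and other cells differed little in the Polycomb genes. In the library labelled Bap1WT 0 members were past 1.5-fold upward and 0 downward, against 10.5% and 17.4% of 13582 genes, and the ratio furthest from 1 was that of *Cbx8* (8.57 CPM in Dpp4-type and 6.21 in other cells, 1.38, 1.10 to 1.73). In that labelled Bap1ΔMPC 1 member was past it upward and 1 downward, against 9.17% and 19.1% of 13680 genes. These were *Cbx7*, at 4.00 and 2.62 CPM (1.53, 1.08 to 2.14), and *Pcgf6*, at 2.51 and 5.15 CPM (0.49, 0.33 to 0.70). *Eed* was slightly higher in Dpp4-type cells of both libraries, at 1.22 (1.06 to 1.39) and 1.18 (1.02 to 1.35). The *Ezh2* ratios of 1.10 (0.93 to 1.29) and 1.03 (0.90 to 1.18) had intervals that held 1.

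The lower *Cbx7* of the library labelled Bap1ΔMPC lay mostly in cells rich in Cxcl14-type markers. Cells that were neither Dpp4-type nor cycling were split, after the values were seen, at 10 UMIs per 10000 of *Cxcl14*, *Smoc2*, *Hsd11b1*, *Col15a1* and *Crispld2* together. In cells at or above 10, *Cbx7* had 141 UMIs (5.24 CPM, 2285 cells) in the library labelled Bap1WT and 56 (2.42 CPM, 2116 cells) in that labelled Bap1ΔMPC, a ratio of 0.46 (0.33 to 0.63). In cells under 10 it had 28 UMIs (2.97 CPM, 731 cells) and 34 (3.25 CPM, 927 cells), a ratio of 1.10 (0.64 to 1.88). *Cbx8* showed the other order, with a ratio of 0.84 (0.66 to 1.08) at or above 10 and 0.60 (0.40 to 0.89) under it, where it had 66 and 44 UMIs. These differences between ratios were not tested, and 3 of the 5 Cxcl14-type markers were themselves past 1.5-fold lower, and 1 higher, in the library labelled Bap1ΔMPC, so the split does not take the same cells from each library.

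**Figure D5:**
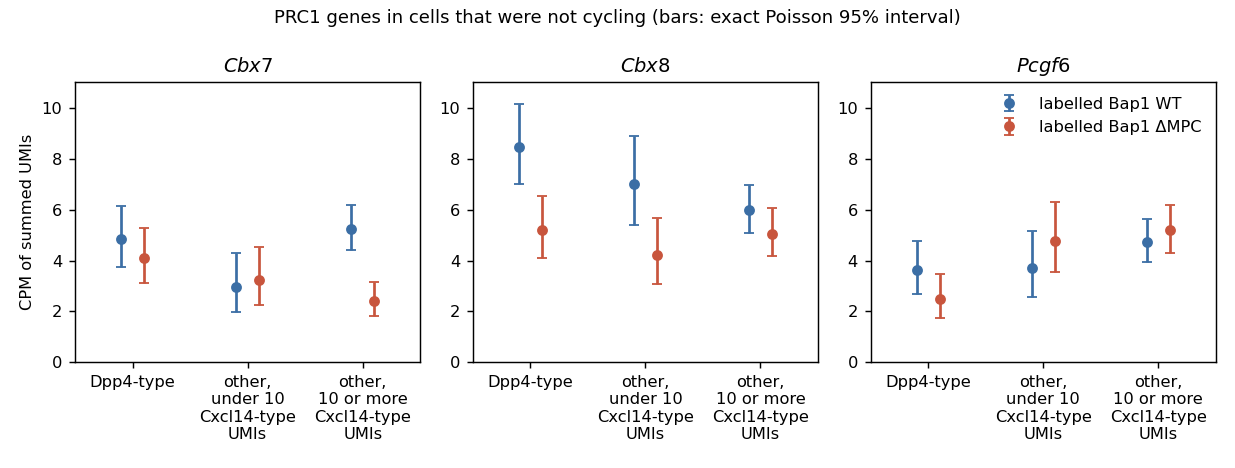
CPM of *Cbx7*, *Cbx8* and *Pcgf6* in cells that were not cycling, divided into Dpp4-type cells and other cells with under 10 or with 10 or more Cxcl14-type marker UMIs per 10000, in both libraries, with exact Poisson 95% intervals as bars. *Cbx7* stands apart between the libraries in the last group (5.24 and 2.42 CPM), *Cbx8* in Dpp4-type cells (8.46 and 5.22 CPM), and *Pcgf6* has overlapping intervals in every group.

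The genes most like each member were sought over 6 groups of cells (cycling, Dpp4-type not cycling and other not cycling cells of each library) by Pearson r of log2 CPM among 5632 genes with at least 20 UMIs in each group. Only *Ezh2*, *Suz12* and *Rnf2* had 20 UMIs in every group. Those most like *Ezh2* were *Ssna1*, *Gins2*, a subunit of the replicative helicase, and *Clspn*, a replication checkpoint adaptor (r = 0.9995, 0.9995 and 0.9987). Those most like *Suz12* were *Ncapg2*, of condensin II, *Wapl*, which releases cohesin, and *Atad2*, a chromatin ATPase (r = 0.9986, 0.9982 and 0.9981). For *Rnf2* they were *Phax*, *Yae1d1* and *Rsl1d1* (r = 0.97, 0.96 and 0.95). The 6 groups come from 2 libraries, and for *Ezh2* and *Suz12* the value rests on the gap between cycling and other cells.

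The other subunits of the complexes were taken from lists compiled for the purpose, and most of them also lay within 1.5-fold between the libraries. Of 9 other PRC2 genes measured, 2 were past it upward and 0 downward, where 12.8% and 10.8% of all genes were. *Epop*, an accessory subunit that links PRC2 to elongin, had 114 UMIs (2.23 CPM) in the library labelled Bap1WT and 242 (4.88 CPM) in that labelled Bap1ΔMPC, a ratio of 2.19 (1.74 to 2.76), and *Phf19*, a Polycomb-like subunit, was at 0.784 and 1.29 CPM (1.65, 1.09 to 2.51). *Jarid2*, an accessory subunit of another class, was lower at 33.6 and 27.5 CPM (0.82, 0.76 to 0.88). Of 10 other canonical PRC1 genes, 0 were past it upward and 1 downward. This was *Scml4*, of the Sex comb on midleg-like family, at 12.3 and 3.75 CPM (0.31, 0.26 to 0.36).

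*Cbx6*, a further reader of methylated H3, was at 105 CPM in the library labelled Bap1WT and 131 CPM in that labelled Bap1ΔMPC (95% interval of the ratio 1.21 to 1.30), while *Cbx7* and *Cbx8* were lower, as given above. Of 25 variant PRC1 genes 1 was past 1.5-fold upward and 0 downward: *Pcgf5*, whose protein takes the place of Bmi1 in a variant complex, was at 10.4 and 16.1 CPM (1.54, 1.38 to 1.73). *Yaf2* (36.0 and 47.7 CPM, 1.33) and *Skp1a* (80.4 and 102 CPM, 1.27) followed. Of 11 genes of the Bap1 complex 0 were past it upward and 1 downward, *Asxl3*, on 47 and 28 UMIs (0.61, 0.37 to 1.0001), and of 12 measured H3K27 demethylase and trithorax genes 0 were past it in either direction. The median log2 ratios of these 5 lists lay between 0.04 and 0.12, close to the 0.10 of all genes.

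In cycling cells, 5 of the 9 other PRC2 genes were past 1.5-fold upward and 0 downward in the library labelled Bap1WT, where 22.0% and 12.2% of all genes were. In that labelled Bap1ΔMPC 4 were past it upward and 1 downward, against 19.0% and 13.3% of all genes. *Rbbp7*, the histone-binding subunit, was at 208 CPM in cycling and 105 CPM in other cells of the library labelled Bap1WT (1.98, 1.69 to 2.30), and at 242 and 120 CPM in that labelled Bap1ΔMPC (2.01, 1.81 to 2.23). *Mtf2*, a Polycomb-like subunit, had ratios of 1.77 (1.09 to 2.73) and 1.93 (1.42 to 2.57). Among canonical PRC1 genes *Scml2* was 4.21 (2.06 to 7.75) and 6.95 (4.40 to 10.6) times higher in cycling cells, on 11 and 27 UMIs. Among variant PRC1 genes *Tfdp1*, the dimer partner of E2F factors, was 2.02 (1.49 to 2.68) and 2.56 (2.13 to 3.04) times higher. Between Dpp4-type and other cells, *Auts2*, of a variant complex (0.49, 0.45 to 0.53, and 0.47, 0.43 to 0.51), and *Pcgf2*, the Bmi1 paralog (0.68, 0.58 to 0.80, and 0.61, 0.53 to 0.71), were lower in Dpp4-type cells of both libraries.

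Developmental regulators are the genes that Polycomb complexes are best known to silence. A list of 160 such genes was compiled with results of these data known, so that its shares describe the list and support nothing beyond it, and 85 of them had at least 20 UMIs in the libraries together. Between the libraries 25 were past 1.5-fold upward and 24 downward, 57.6% of those measured, where 23.6% of all 14729 genes were past it. Their median log2 ratio was -0.15, against 0.10 over all genes. Among genes with 100 or more UMIs, 32 of 63 were past it in either direction, where 17.6% of all 12388 such genes were. *Lhx2*, a LIM homeobox gene, had 27 UMIs (0.529 CPM) in the library labelled Bap1WT and 157 (3.17 CPM) in that labelled Bap1ΔMPC, a ratio of 5.99 (3.96 to 9.37). *Tbx4*, a T-box gene of the hindlimb, had 196 and 32 UMIs (0.17, 0.11 to 0.25), and *Pax9*, a paired box gene, 102 and 18 UMIs (0.18, 0.10 to 0.30). In Dpp4-type cells 11 of 64 were past it upward and 21 downward, against 9.76% and 10.2% of all genes. With 100 or more UMIs in these cells, 4 and 11 of 41 were (36.6%), where 13.6% of all 10178 such genes were. There *Tbx5*, a T-box gene of the forelimb, was at 11.3 and 27.9 CPM (2.46, 2.05 to 2.97), *Sox11* at 16.2 and 38.9 CPM (2.41, 2.06 to 2.82) and *Hand2* at 6.02 and 1.69 CPM (0.28, 0.17 to 0.44). *Tbx4* and *Tbx5* mark hindlimb and forelimb, and the part that the mix of limbs in each library has in these values was not tested.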

How the data were processed

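Unnormalized UMI counts per gene and cell were deposited. The authors aligned droplet 3′ scRNA-Seq reads to mm10 with Cell Ranger 3.1.0, gated doublets and removed cells with high expression of non-FAP markers in Seurat 3.2.1 (R 3.6.1). The processing notes also name bcl2fastq 2.20.0 and FastQC 0.11.7. The deposited cells were used without further filtering. As a check of doublets, Scrublet (scanpy 1.11.5) marked 4 of 8481, which were kept. The libraries shared 5 cell barcodes.

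Counts were summed per group of cells and scaled to CPM. No test was made, since each genotype has 1 library. Exact 95% intervals cover counting error only. Where 1 side of a ratio had 0 UMIs, 3 were put in its place, which makes the ratio a bound, and a bound on the other side of 1 made no call. On simulated data the ratios recovered the changes they were drawn with, which checks the calculation and not the spread between cells or libraries. The members, lists, groups of cells and fold were chosen with earlier results of these data known, and the motifs and the splits by S-phase and Cxcl14-type genes after the values were seen. Genes named are the 10 members, *Bap1*, the genes that define the groups, per list and comparison the 3 with the largest absolute log2 ratio among those with 100 or more UMIs, and the 3 most like each eligible member. *Asxl3* and *Cdkn2a*, with fewer UMIs, were named after their values were seen, and not every gene that the rule picks is printed. Alternatives changed the fold, the minimum of UMIs, the scaling (TMM in edgeR 4.0.16, R 4.3.3), the weighting of cells, the depth, the doublets and the cuts that define the groups. Python 3.11.15, numpy 2.4.6, scipy 1.17.1 and matplotlib 3.10.9 were used. Gene positions are from GENCODE on GRCm38 and promoters from RefSeq on GRCm38.p6.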

Additional observations from a re-analysis of the deposited data

Results flagged for a closer look

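*Pcgf6* was picked out because its ratios between the libraries lay on opposite sides of 1 in the Dpp4-type and other cells. The CPM ratio of the library labelled Bap1ΔMPC over that labelled Bap1WT was 0.63 in Dpp4-type cells, on 37 and 56 UMIs, and 1.14 in other cells, on 179 and 166 UMIs. This screen covers counting error only, and the difference was not tested with replicates, since each genotype has 1 library. It was run on all 10 members and several comparisons, without the share of all genes that would pass, and picked out *Pcgf6* alone. With cycling cells left out, the *Pcgf6* level in Dpp4-type cells was 2.51 CPM (labelled Bap1ΔMPC) against 3.61 CPM (labelled Bap1WT), which is under 1.5-fold.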

How the results depend on the processing

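No paired analysis was possible because there was a single library of either genotype, and none could be left out. Counts of members past the fold are small and followed the fold. Over all cells 1 member was past 1.5-fold, 0 past 2-fold and 0 past 3-fold, and 3 were past a fold of 5 to 4. In Dpp4-type cells 4 in place of 2 were past the fold of 5 to 4 and 0 past 2-fold and 3-fold, and in other cells 3 in place of 1 and likewise 0. Between cycling and other cells 4 members were past 1.5-fold in the same direction in both libraries, 2 were past 2-fold and 1, *Ezh2*, past 3-fold. The 4 include *Cbx7*, on 2 and 1 UMIs in cycling cells, and *Ezh1*, which a cycling cut of 1 UMI left within 1.5-fold in both libraries. In Dpp4-type cells 1 member, *Cbx8*, in place of 2 was past the fold with a minimum of 100 UMIs, with a Dpp4-type cut of 15 per 10000, or with cycling cells left out. In other cells 2 in place of 1 were past it with a cut of 15 or 40 and with *Pi16*, *Sema3c* or *Efemp1* dropped from the cut, since *Ezh2* then passed 1.5-fold. A cycling cut of 1 UMI gave an *Ezh2* share of 69.9% in place of 88.9% in the library labelled Bap1WT and 79.4% in place of 87.0% in that labelled Bap1ΔMPC. Thinning to 5000 UMIs gave 38.05% in place of 42.4% in cells of the library labelled Bap1ΔMPC that were not cycling, and the cause was not tested. *Ring1* was also past 1.5-fold lower in cycling cells of the library labelled Bap1WT with TMM scaling, equal weight per cell or a cycling cut of 4 UMIs. In that labelled Bap1ΔMPC it was so on thinned counts. Thinning put *Bmi1* and *Cbx8* past it upward in the library labelled Bap1WT. In that labelled Bap1ΔMPC equal weight did so for *Pcgf6* and a cut of 4 UMIs for *Bmi1*. Of 420 alternative values of members' ratios, including those at other cuts, 409 stayed within the counting interval of the main value and 0 reversed a call. Of the 11 that moved outside it, 5 were on thinned counts, 5 were ratios of *Ezh1*, *Ezh2* and *Suz12* at another cycling cut, and 1 was *Ezh2* between Dpp4-type and other cells with *Pi16* dropped (1.32). The *Ezh2* ratio between the libraries was 1.30 on thinned counts, the lowest of its alternatives. Ratios of genes with under 20 UMIs, such as *Cbx7* in cycling cells, are limited by depth. The tally of alternatives is a weak check. Leaving out doublets removed 4 of 8481 cells, wide intervals hold most values, and a reversal was scored only for ratios past 1.5-fold.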

Other observations

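The *Cdkn2a* and *Cdkn2b* genes, cell-cycle inhibitors of a locus long known to be held silent by Polycomb, were higher in the library labelled Bap1ΔMPC at low levels. *Cdkn2a* had 7 and 23 UMIs (3.38, 1.41 to 9.34), and *Cdkn2b* had 50 and 110 UMIs (2.27, 1.61 to 3.23), of which 46 and 106 were in cells that were not Dpp4-type. *Cdkn2d*, which encodes another inhibitor of the same family at a different locus, was lower, with 2034 and 1287 UMIs (0.65). These genes come from a list of 7 cell-cycle inhibitor genes, of which 3 were past 1.5-fold upward and 1 downward. Of all genes 12.8% and 10.8% were. The median log2 ratio of the list was 0.06, against 0.10 over all genes, and a part of Polycomb in these values was not tested.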
